A study of Mus musculus with 8 samples.

Results

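The genes described here are 10 members of the BMP (bone morphogenetic protein) pathway and of the Id family, chosen by name: the ligands *Bmp4* and *Bmp2*, the receptors *Bmpr1a* and *Bmpr2*, the signal transducers *Smad1* and *Smad5*, the inhibitor *Smad6*, and the target genes *Id1*, *Id2* and *Id3*. All 10 were found by Entrez identifier among the 21950 genes of the count table. RNA was sequenced from 4 d6PGCLC and 4 E12.5 PGC pools. d6PGCLCs are cultured counterparts of early germ cells, derived from BVSC-iPSC, a female mouse iPSC line established from tail tip fibroblasts and carrying Blimp1-Venus and Stella-ECFP reporters, and they were sorted for both reporters at day 8 of culture, 6 days after their induction. E12.5 PGCs are germ cell precursors of inbred C57BL/6J fetuses, sorted from female gonads by SSEA1 and integrin β3. Pools held between 30000 and 340000 cells and came from independent experiments, and all d6PGCLC pools came from the same iPSC line, so that origin in culture, developmental stage, genetic background and sort cannot be told apart in this comparison. By the study's methods, BMP4 protein was added to the medium in which the d6PGCLCs were induced, and a later change of medium lists SCF, LIF and EGF. Protein in the medium adds no reads.

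BMPs are secreted ligands that bring together type I and type II receptor kinases. The type I receptor phosphorylates SMAD1, SMAD5 and SMAD9, which enter the nucleus with SMAD4 and activate genes, among which the Id genes are classical direct targets. ID proteins have a helix-loop-helix domain without a DNA-binding part, and they hold back E proteins and other helix-loop-helix factors. In the mouse embryo, BMP4 from extraembryonic tissue induces germ cell precursors in the epiblast, and in the fetal ovary *Bmp2* is known from somatic cells that surround the germ cells.

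The relatedness of the Id genes bears on whether their reads can be separated. A stretch of 75 coding bases, found as the part most alike among *Id1* to *Id4*, is shown because it lies where the family is most conserved. In GRCm38 it lies in exon 1 of each gene, at chr2:152736572-152736646 (+ strand) for *Id1*, chr12:25095774-25095848 (- strand) for *Id2*, chr4:136144056-136144130 (+ strand) for *Id3* and chr13:48261747-48261821 (+ strand) for *Id4*, which is not a member. Capitals mark the 46 positions at which all 4 genes have the same base, and sequences run 5′ to 3′ from the GENCODE transcripts.
Id1: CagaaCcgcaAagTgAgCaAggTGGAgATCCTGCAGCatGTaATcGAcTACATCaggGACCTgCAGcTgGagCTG
Id2: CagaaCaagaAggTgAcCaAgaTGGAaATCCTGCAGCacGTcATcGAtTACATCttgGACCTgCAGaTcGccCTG
Id3: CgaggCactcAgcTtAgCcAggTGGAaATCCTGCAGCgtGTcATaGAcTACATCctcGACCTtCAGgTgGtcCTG
Id4: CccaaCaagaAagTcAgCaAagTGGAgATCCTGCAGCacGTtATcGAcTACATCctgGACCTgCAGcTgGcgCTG
Against *Id1*, the stretch matched at 59 of 75 positions in *Id2*, 52 in *Id3* and 63 in *Id4*. No run of 100 bases, the read length, was shared by a transcript of *Id1*, *Id2* or *Id3* with a transcript of any other annotated gene. Among the other members, *Bmpr1a* shared 2.96% of such runs with the opposite-strand gene *Gm17110* and *Smad5* shared 1 run with *Gm27301*. For *Bmp4*, 89 exonic bases overlap *Gm15217* on the opposite strand, and whether the authors counted by strand is not stated.

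Promoters are shown for *Bmp4*, the member that rose most, and for *Id2* and *Id3*, which fell by different amounts. RefSeq (GRCm38.p6) gave an entry for 8 of the 10 members, and none for *Bmp2* and *Id1*. The 250 bases before the start are at chr14:46390670-46390919 (- strand) for *Bmp4*, chr12:25096093-25096342 (- strand) for *Id2* and chr4:136143572-136143821 (+ strand) for *Id3*. Capitals mark the letters GGCGCC, a palindrome that forms part of GC-rich elements bound by BMP-activated SMADs.
Bmp4: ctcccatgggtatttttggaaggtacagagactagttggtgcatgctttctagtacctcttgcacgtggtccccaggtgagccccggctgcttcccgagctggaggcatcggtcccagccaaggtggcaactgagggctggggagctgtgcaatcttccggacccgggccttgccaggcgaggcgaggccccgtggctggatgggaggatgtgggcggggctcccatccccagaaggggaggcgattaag
Id2: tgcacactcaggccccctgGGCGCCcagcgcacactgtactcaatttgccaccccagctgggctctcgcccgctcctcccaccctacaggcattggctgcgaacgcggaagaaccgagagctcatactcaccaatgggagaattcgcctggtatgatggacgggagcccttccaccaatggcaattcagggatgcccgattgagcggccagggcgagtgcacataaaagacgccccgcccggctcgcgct
Id3: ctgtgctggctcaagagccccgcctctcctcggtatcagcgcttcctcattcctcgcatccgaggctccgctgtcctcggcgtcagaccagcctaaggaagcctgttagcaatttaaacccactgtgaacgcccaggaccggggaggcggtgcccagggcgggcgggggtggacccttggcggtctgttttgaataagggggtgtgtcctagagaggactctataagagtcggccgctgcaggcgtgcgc
GGCGCC occurred in the window of *Id2* and not in those of *Bmp4* and *Id3*. Outside the members, it was in the window of *Id4* and not in that of *Msx1*, both lower in d6PGCLCs. The 8 members had 10 listed windows, 3 of them for *Smad5*, and the letters were in 4 of these windows (those of *Bmpr1a*, *Bmpr2* and *Id2*, and 1 of *Smad5*), against 9.59% of all 32851 promoter windows of this length. The SMAD-binding letters GTCT, on either strand, were in 82.9% of all windows, 1 time in *Bmp4*, 1 time in *Id2* and 2 times in *Id3*. The members' windows were GC-rich, at 63.2% in *Bmp4* and 62.8% in both *Id2* and *Id3*. These matches describe the sequence of a window only, and the shares over all windows were not matched for GC content.

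The libraries held between 8054596 and 12024841 counted reads in d6PGCLCs and between 7991437 and 11166023 in E12.5 PGCs, and 3 counts, taken as the limit of detection, correspond to at most 0.383 CPM (counts scaled to a common, TMM-adjusted library size). All 10 listed germ cell markers were above 3 counts in both groups, with summed levels of 3743 to 4333 CPM in the d6PGCLC libraries and 4472 to 5044 CPM in E12.5 PGCs. Within that list 8 of 10 were called, with *Prdm1*, *Dppa3*, *Tfap2c* and *Pou5f1* higher and *Dnd1*, *Ddx4*, *Dazl* and *Mael* lower in d6PGCLCs. That is 80.0%, against 31.5% of all genes. All 10 had more than 1 CPM in at least 3 libraries, and 57.0% of such genes were called. *Prdm1* (Blimp1) and *Dppa3* (Stella) are the genes whose reporters served to sort the d6PGCLCs. The part of the sort in their levels was not tested. Gonadal somatic markers summed to 1.33 to 2.91 CPM in d6PGCLCs, where only *Tcf21* of the 11 counted was at 0, and to 6.14 to 9.89 CPM in E12.5 PGCs, where none was. Endothelial markers summed to 27.9 to 37.2 and 14.9 to 25.6 CPM, mesoderm markers to 2.91 to 4.79 and 9.30 to 13.2 CPM, and blood markers to 0 to 0.102 and 0 to 5.47 CPM. *Emcn*, an endothelial marker, *Mesp1* and *Foxf1* of mesoderm, and *Hba-a2* and *Hbb-bs* of blood were at 0 in all d6PGCLC libraries, and *Ptprc*, a blood marker, was at 0 in all E12.5 PGC libraries. Within E12.5 PGCs, 14 of 14 dissociation response genes were highest in replicate 2, at a summed 1386 CPM against 630.4 to 724 CPM in the other replicates, and replicate 4 held 53 counts on 4 Y-linked genes that had 0 in the other 7 libraries. In sorted bulk RNA, fewer cells of a type and less RNA per cell cannot be told apart.

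Of the 10 members, 7 passed the test (edgeR quasi-likelihood, with p-values adjusted by Benjamini-Hochberg across the whole table and called up to 0.05), with *Bmp4* and *Smad1* higher and *Bmp2*, *Bmpr1a*, *Id1*, *Id2* and *Id3* lower in d6PGCLCs. Over all genes 31.5% passed, 16.1% higher and 15.4% lower. Because 9 of the members had more than 1 CPM in at least 3 libraries, the nearer background is the 11767 genes that met this filter, of which 57.0% passed when tested alone, 28.7% higher and 28.3% lower. In the fit of these filtered genes 2 members were called higher and 5 lower among the 9 that remained, without *Bmp2* and with *Smad5* called. The members are few and were chosen with earlier results of these data known, so their share is not read as a result. What follows is about which members moved and by how much. With all genes fitted and a log2 fold change of 2 or more in size required as well, *Bmp4* remained higher and *Bmp2* and *Id1* lower. The share past both thresholds was 6.62% of all genes (3.24% higher, 3.37% lower) and 7.94% of the filtered genes (4.24% higher, 3.70% lower). The groups did not overlap for 7 members, against 30.2% of all genes and 51.2% of the filtered genes. The median log2 fold change was -0.33 over the members and 0.00 over all genes.

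**Figure D1:**
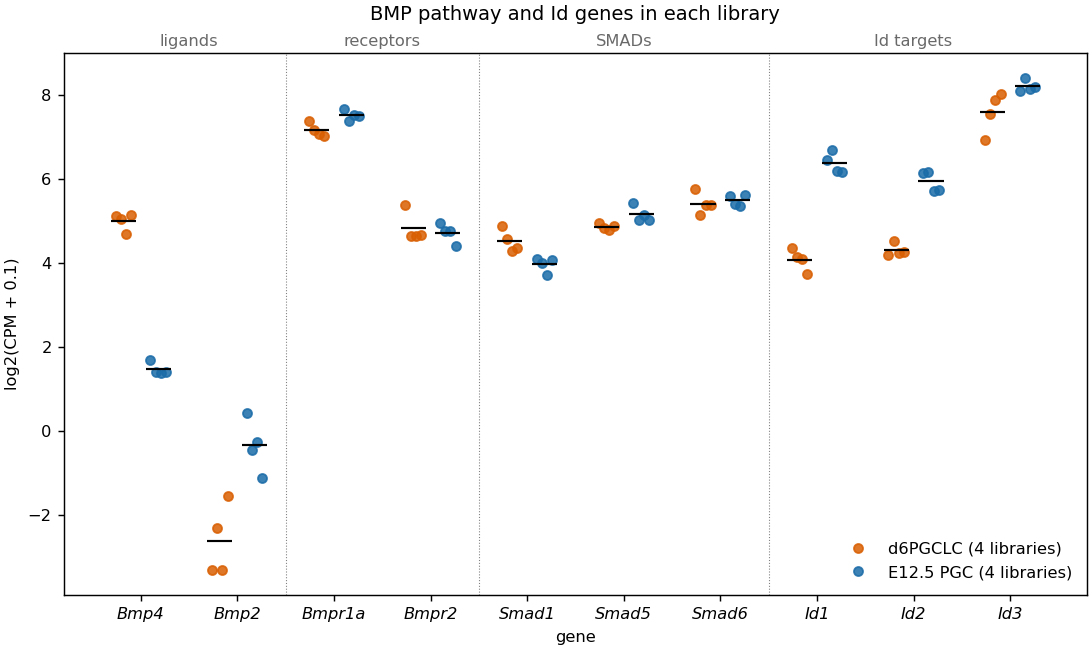
Levels of the 10 genes on the scale log2(CPM + 0.1), with each point a library (4 d6PGCLC in orange, 4 E12.5 PGC in blue, replicates 1 to 4 from left to right) and each bar the mean of a group. *Bmp4* was at 25.9 to 35.5 CPM in the d6PGCLC libraries and 2.49 to 3.12 CPM in E12.5 PGCs, whereas *Id1* and *Id2* lay lower in every d6PGCLC library than in any E12.5 PGC library.

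The ligands went opposite ways. *Bmp4*, the ligand that induces the germ line in the embryo (Entrez 12159, chromosome 14, 46383525 to 46390669 in GRCm38), was at 34.8, 33.1, 25.9 and 35.5 CPM in d6PGCLC replicates 1 to 4, from 273 to 325 counts. In E12.5 PGCs it was at 3.12, 2.53, 2.49 and 2.53 CPM, from 24 to 28 counts. Every d6PGCLC library was thus far above every E12.5 PGC library, and the levels within each group were close together. The mean of 32.3 ± 4.42 against 2.67 ± 0.303 CPM (SD, n = 4 libraries each) gave a log2 fold change of 3.60 (SE 0.19, edgeR adjusted p = 2.85e-12), or 12.1-fold with a 95% interval of 9.29 to 15.9. Leaving out each library in turn kept it between 3.55 and 3.69. *Bmp2*, a ligand close to *Bmp4* in sequence (Entrez 12156, chromosome 2, 133552159 to 133562896), had 0, 1, 0 and 2 counts in d6PGCLCs and 10, 6, 8 and 4 counts in E12.5 PGCs. All d6PGCLC libraries were at or under the detection limit and all E12.5 PGC libraries just above it, between 0.361 and 1.25 CPM. The ratio of 28 to 3 counts, scaled for depth, was 9.19 with a 95% counting interval of 2.84 to 47.2 (exact binomial, counting error only), and edgeR gave an adjusted p of 0.00571. The fitted log2 fold change of -2.99 ran from -3.99 (without d6PGCLC replicate 4) to -2.52 (without d6PGCLC replicate 3) with a library left out, and *Bmp2* was called each time. The gonadal somatic markers were higher in the same E12.5 PGC libraries, with 6 of 11 called (*Wnt4*, *Rspo1*, *Gata4*, *Wt1*, *Pdgfra* and *Kitl*), 54.5% against 31.5% of all genes, and 2 of the 11 met the filter on low counts. These markers summed to 9.61, 9.89, 8.48 and 6.14 CPM in E12.5 PGC replicates 1 to 4, highest in replicate 2. *Bmp2* was highest in replicate 1 and lowest in replicate 4. The part of such cells in the *Bmp2* counts was not tested.

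Among 12 other ligands of the family, none was called by edgeR's quasi-likelihood test or by DESeq2, 2 (*Bmp7* and *Gdf6*) had an unadjusted p under 0.05, and *Gdf6* was called by the likelihood ratio test. Over all genes 31.5% were called and among the filtered genes 57.0%, and 2 of the 12 ligands met that filter. *Bmp8b*, which with *Bmp4* is needed for germ cell precursors in the embryo, averaged 12.4 ± 1.24 CPM in culture and 15.2 ± 1.75 CPM in the embryo, with a log2 fold change of -0.29 and a 95% interval of -0.63 to 0.04 (edgeR adjusted p = 0.198). For *Bmp7* the log2 fold change was 0.46 (interval 0.06 to 0.85, edgeR adjusted p = 0.0739). The other 10 were all below 1 CPM on average in both groups, 8 of them with at most 3 counts in every library.

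The receptors among the members moved little. *Bmpr1a*, a type I receptor for BMP2 and BMP4 (Entrez 12166, chromosome 14, 34411061 to 34503336), was at 167, 143, 134 and 130.4 CPM in d6PGCLCs and at 205, 166, 186 and 181 CPM in E12.5 PGCs. The ranges met at d6PGCLC replicate 1 and E12.5 PGC replicate 2, and the other 3 libraries of each group were apart. Its log2 fold change was -0.36 (SE 0.10, edgeR adjusted p = 0.00628), and the two-sided exact permutation test over the 8 libraries gave p = 0.0571. *Bmpr2*, the type II receptor of this pair (Entrez 12168, chromosome 1, 59764279 to 59878081), was at 41.9, 24.9, 24.7 and 25.5 CPM in d6PGCLCs and at 30.7, 27.1, 27.0 and 20.9 CPM in E12.5 PGCs. d6PGCLC replicate 1 stood above all other libraries, and the remaining 7 were mixed. The log2 fold change of 0.14 had an interval of -0.21 to 0.50 (edgeR adjusted p = 0.665), and it was -0.08 without d6PGCLC replicate 1.

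Some of the other receptors were more clearly apart, and others were not. *Acvr1*, another type I receptor for BMPs, was at 20.9, 18.4, 23.9 and 23.2 CPM in the d6PGCLC libraries and 59.5, 44.9, 45.3 and 44.7 CPM in E12.5 PGCs, with no overlap and a log2 fold change of -1.17 (SE 0.14, edgeR adjusted p = 6.18e-07). *Bmpr1b*, the third type I receptor, was scarcely counted, with 11 counts over all d6PGCLC and 20 over all E12.5 PGC libraries. Of the 9 other receptors and co-receptors in the table, 3 were lower (*Acvr1*, *Rgmb* and *Neo1*), 2 were higher (*Eng* and *Tgfbr3*) and 4 did not pass. The called share was 55.6%, against 31.5% of all genes and 57.0% of the filtered genes, and 7 of the 9 met that filter. *Eng*, the co-receptor endoglin, is also known from endothelium. Of the 6 endothelial markers, *Cdh5* and *Flt1* were called higher in d6PGCLCs as well and 4 did not pass, with *Emcn* at 0 there. That is 33.3% called, against 31.5% of all genes, and 3 of the 6 met the filter on low counts. The part of endothelial cells in *Eng* and *Tgfbr3* was not tested. *Rgmb*, a BMP co-receptor, and *Neo1*, the receptor for RGM proteins, had log2 fold changes of -0.56 and -0.55. *Tgfbr3*, the co-receptor betaglycan, had a log2 fold change of 1.96 (edgeR adjusted p = 0.00708) from a mean of 0.368 CPM in E12.5 PGCs. The type II receptors *Acvr2a* and *Acvr2b* had log2 fold changes of -0.23 and 0.14 and did not pass.

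The SMADs among the members differed by less than 1.5-fold. *Smad1* (Entrez 17125, chromosome 8, 79338395 to 79399428) was at 29.2, 23.8, 19.3 and 20.4 CPM in d6PGCLCs and at 17.1, 16.0, 13.0 and 16.7 CPM in E12.5 PGCs. The groups did not overlap, though the lowest d6PGCLC library, replicate 3, was near the highest E12.5 PGC library, replicate 1. *Smad1* had a log2 fold change of 0.56 (SE 0.16, edgeR adjusted p = 0.00980), which was 0.48 with an adjusted p of 0.0536 without E12.5 PGC replicate 3, where the call was lost. *Smad5*, which shares the role of *Smad1* (Entrez 17129, chromosome 13, 56703010 to 56742378), was at 31.0, 28.3, 27.6 and 29.6 CPM in d6PGCLCs and at 42.9, 32.7, 35.0 and 32.7 CPM in E12.5 PGCs. All E12.5 PGC libraries were above all d6PGCLC libraries, the closest by less than 2 CPM. Its log2 fold change of -0.30 (interval -0.57 to -0.03) had an adjusted p of 0.0876 by the quasi-likelihood test over all genes and passed with DESeq2 (0.0337) and with both filters on low counts (0.0395 and 0.0382). *Smad5* was counted on 1619 bases of exons, 24.6% of its longest annotated isoform, so that its level rests on part of the gene. *Smad6*, an inhibitory SMAD that BMP signals induce (Entrez 17130, chromosome 9, 63953076 to 64022085), was at 53.9, 35.1, 41.4 and 41.5 CPM in d6PGCLCs and at 48.4, 42.5, 40.9 and 49.4 CPM in E12.5 PGCs. The libraries of the groups were interleaved, and the log2 fold change of -0.08 had an interval of -0.35 to 0.20 (edgeR adjusted p = 0.843), which corresponds to 0.784 to 1.15-fold.

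Outside the members, *Smad9*, the remaining BMP-responsive SMAD, had 10 counts over the d6PGCLC libraries and 69 over the E12.5 PGC libraries, a log2 fold change of -2.67 (SE 0.56, edgeR adjusted p = 0.000193). *Smad4*, the shared partner, was at 133 ± 20.2 and 126 ± 3.28 CPM and did not pass (log2 fold change 0.07, interval -0.14 to 0.29). *Smad7*, the other inhibitory SMAD, was higher, at 97.6, 105, 121 and 109 CPM in d6PGCLCs against 64.0, 67.2, 56.5 and 67.9 CPM in E12.5 PGCs, with a log2 fold change of 0.76 (edgeR adjusted p = 4.23e-06). The groups were fully apart for *Smad7*, unlike for *Smad6*. Of the 16 intracellular transducers and inhibitors listed, 4 were higher (*Smad7*, *Ski*, *Skil* and *Ppm1a*), 5 were lower (*Smad9*, *Bambi*, *Smurf2*, *Tob2* and *Lemd3*) and 7 did not pass, a called share of 56.2% against 57.0% of the filtered genes, a filter that all 16 met. *Ski* and *Skil* repress SMAD activity, and *Ppm1a* is a phosphatase of SMADs, with log2 fold changes of 0.59, 0.41 and 0.56. *Bambi*, a decoy receptor, and *Tob2* had log2 fold changes of -0.93 and -0.91, and *Smurf2*, a ubiquitin ligase that targets SMADs and receptors, of -0.77. Inhibitors were thus found among both the higher and the lower genes.

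All 3 Id members were lower in d6PGCLCs, by different amounts. *Id1* (Entrez 15901, chromosome 2, 152736251 to 152737410) was at 20.4, 17.5, 16.9 and 13.2 CPM in d6PGCLCs and at 87.6, 103, 72.9 and 71.7 CPM in E12.5 PGCs. The lowest E12.5 PGC library was above 3 times the highest d6PGCLC library. *Id1* had a log2 fold change of -2.30 (SE 0.14, edgeR adjusted p = 7.82e-11), that is 4.92-fold lower in d6PGCLCs. *Id2* (Entrez 15902, chromosome 12, 25093799 to 25096092) was at 18.1, 22.9, 18.8 and 19.0 CPM in d6PGCLCs and at 70.6, 72.1, 52.7 and 53.6 CPM in E12.5 PGCs, again without overlap. Its log2 fold change was -1.65 (SE 0.14, edgeR adjusted p = 4.56e-09), or 3.15-fold lower. *Id3* (Entrez 15903, chromosome 4, 136143822 to 136145392) was at 123, 187, 235 and 260.4 CPM in d6PGCLCs and at 276, 341, 282 and 293 CPM in E12.5 PGCs. Its groups did not overlap but came close at d6PGCLC replicate 4 and E12.5 PGC replicate 1, and its spread was wide in d6PGCLCs, with a coefficient of variation of 30.1% against 9.87% in E12.5 PGCs. The log2 fold change of *Id3* was -0.56 (SE 0.15, edgeR adjusted p = 0.00565) and was -0.39 without d6PGCLC replicate 1, its lowest library. As ratios of d6PGCLC to E12.5 PGC levels, the 95% intervals were 0.261 to 0.387 for *Id2* and 0.544 to 0.841 for *Id3* and did not overlap, and that of *Id1* began at 0.165 and ended below that of *Id2*.

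*Id1*, *Id2* and *Id3* were all highest, among E12.5 PGC libraries, in replicate 2, the library in which the dissociation response genes were highest. Without that replicate their log2 fold changes were -2.18, -1.57 and -0.49 (edgeR adjusted p = 9.55e-10, 6.31e-08 and 0.0252), and without replicates 2 and 4 together they were -2.24, -1.64 and -0.47 (edgeR adjusted p = 2.14e-11, 1.07e-08 and 0.0368). All 3 were thus still called without these libraries. Between the groups, 11 of the 14 dissociation response genes were called, 8 lower in d6PGCLCs (*Fos*, *Jun*, *Egr1*, *Atf3*, *Dusp1*, *Klf6*, *Hspa1a* and *Hspa1b*) and 3 higher (*Junb*, *Zfp36* and *Nr4a1*), with a median log2 fold change of -0.59. All 14 met the filter on low counts, under which 57.0% of genes were called, 28.3% lower. Their summed level was 637 to 809 CPM in d6PGCLCs, and d6PGCLC replicate 1 (809 CPM) was above all E12.5 PGC libraries other than replicate 2. Their part in the Id values was not tested beyond leaving out these libraries. *Bmp4* was at 3.58 and 3.53 in the same fits. Without both replicates *Bmp2* was at -3.41, *Bmpr1a* at -0.45 and *Smad1* at 0.62, and these 3 were still called, whereas *Smad5* at -0.42, *Bmpr2* at 0.02 and *Smad6* at -0.06 were again not called.

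**Figure D2:**
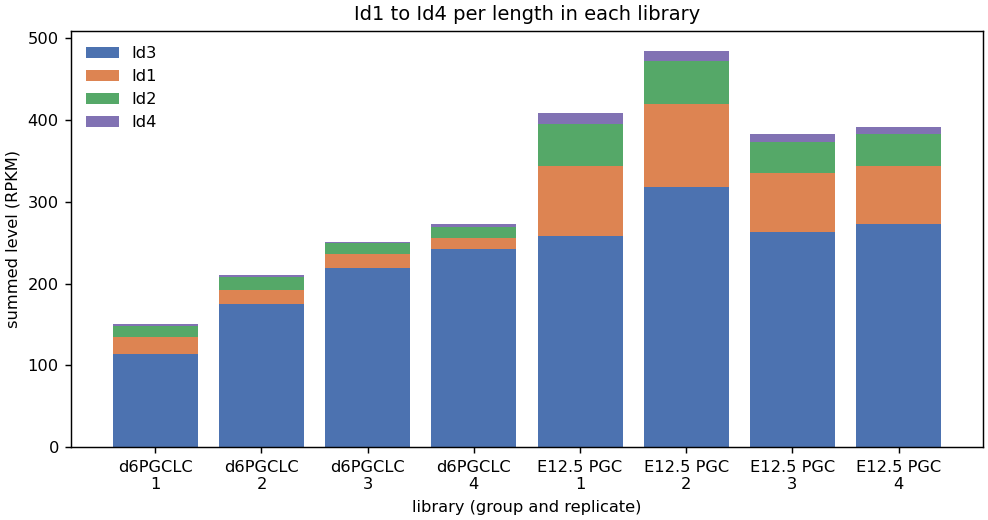
Summed level per exonic length (RPKM) of *Id1* to *Id4* in each of the 8 libraries, with each bar divided by gene. *Id3* made up 76.2 to 88.9% of the sum in d6PGCLCs and 63.1 to 69.7% in E12.5 PGCs.

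Per exonic length (RPKM, CPM divided by kilobases of exon), the sum of *Id1* to *Id4* was 150.1, 211, 251 and 273 in d6PGCLCs and 408, 484, 383 and 392 in E12.5 PGCs. The share of *Id1* in this sum ran from 4.78 to 13.4% in d6PGCLCs and from 18.1 to 21.2% in E12.5 PGCs, and that of *Id2* from 5.01 to 8.68% and from 9.84 to 12.4%. *Id3* held a larger share in every d6PGCLC library than in any E12.5 PGC library. Within d6PGCLCs the library with the highest *Id1*, replicate 1, had the lowest *Id3*, and replicate 4 had the lowest *Id1* and the highest *Id3*. *Id4*, which is no member, was at 3.24 to 6.18 CPM in the d6PGCLC libraries and 24.2, 22.6, 18.0 and 17.1 CPM in E12.5 PGCs, with a log2 fold change of -2.19 (SE 0.20, edgeR adjusted p = 2.52e-08). It was apart between the groups in the same way as *Id1* and *Id2*.

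Other target genes of the pathway were read from a list of 10, of which 6 were lower (*Id4*, *Msx1*, *Gata2*, *Gata3*, *Atoh8* and *Dlx5*), 2 were higher (*Msx2* and *Hey1*) and 2 did not pass. That is 80.0% called, against 31.5% of all genes and 57.0% of the filtered genes, of which 28.3% were lower. Of the 10 targets, 7 met the filter on low counts. The median log2 fold change of the list was -1.12 against 0.00 over all genes. *Msx1*, a homeobox gene induced by BMPs, was at 1.79, 1.63, 1.58 and 2.30 CPM in the d6PGCLC libraries and 19.3, 19.1, 21.0 and 14.7 CPM in E12.5 PGCs. Every E12.5 PGC library was several times above every d6PGCLC library, and the log2 fold change was -3.35 (SE 0.22, edgeR adjusted p = 8.02e-11). Its paralog *Msx2* was at 104 ± 7.06 and 87.4 ± 3.72 CPM (log2 fold change 0.25, edgeR adjusted p = 0.0446). *Gata2* and *Gata3*, zinc finger factors, had log2 fold changes of -1.05 and -1.19. *Atoh8* was near the detection limit, with a mean of 0.786 CPM in E12.5 PGCs. *Dlx5* averaged below that limit, at 0.228 CPM in E12.5 PGCs, though each of the 10 targets had more than 3 counts in some library. The mesoderm markers also summed higher in E12.5 PGCs, with 4 of 6 called higher there (*Mixl1*, *Mesp1*, *Hand1* and *Foxf1*) and *Tbx6* called the other way. Their called share was 83.3%, against 31.5% of all genes, and 3 of the 6 met the filter on low counts. Of the called markers, *Mesp1* and *Foxf1* had at most 3 counts in every library. The part of the mesoderm markers in these target genes was not tested.

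Of the 3 E proteins, which ID proteins bind, 1 was lower and 2 did not pass, which is near the 31.5% of all genes and below the 57.0% of the filtered genes, a filter that all 3 met. *Tcf3* was at 670.1 ± 30.2 CPM in the d6PGCLC libraries and 598 ± 8.35 CPM in the E12.5 PGC libraries (log2 fold change 0.16, interval 0.00 to 0.33, edgeR adjusted p = 0.131). Its groups did not overlap, and it was called by DESeq2 (adjusted p = 0.0407). *Tcf12* was lower, at 96.9 ± 3.21 against 172 ± 14.1 CPM (log2 fold change -0.83, edgeR adjusted p = 2.93e-07). *Tcf4* was at 4.81 ± 0.876 and 5.61 ± 1.12 CPM and did not pass.

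Secreted antagonists of BMPs split by gene. Of 14 in the table, 2 were higher in d6PGCLCs (*Nbl1* and *Fstl3*), 4 were lower (*Chrd*, *Fst*, *Nog* and *Chrdl2*) and 8 did not pass, 6 of the 14 with at most 3 counts in every library. The called share was 42.9%, against 31.5% of all genes, and 4 of the 14 met the filter on low counts. *Nbl1*, a DAN family antagonist, was at 15.0 ± 10.1 against 0.616 ± 0.506 CPM (SD, n = 4 each), its d6PGCLC libraries lying between 6.25 and 27.3 CPM (edgeR adjusted p = 2.49e-07). *Fstl3*, a follistatin-like binding protein, was at 12.4 ± 6.33 against 2.28 ± 0.616 CPM (log2 fold change 2.44). *Chrd*, which encodes chordin, had 5 counts over the d6PGCLC and 127 over the E12.5 PGC libraries, and *Fst*, follistatin, 9 and 62. Among genes that process ligands, *Pcsk6* was higher (138 ± 8.89 against 48.0 ± 10.5 CPM, log2 fold change 1.52), as was *Tll2*, at 0.615 and 0.110 CPM, while *Furin* (-0.61) and *Bmp1*, a protease that cleaves chordin (-1.94), were lower. Over all 70 other pathway genes in the table, 12 were called higher and 21 lower, 47.1% in all against 31.5% of all genes, and 42 of them met the filter on low counts.

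**Figure D3:**
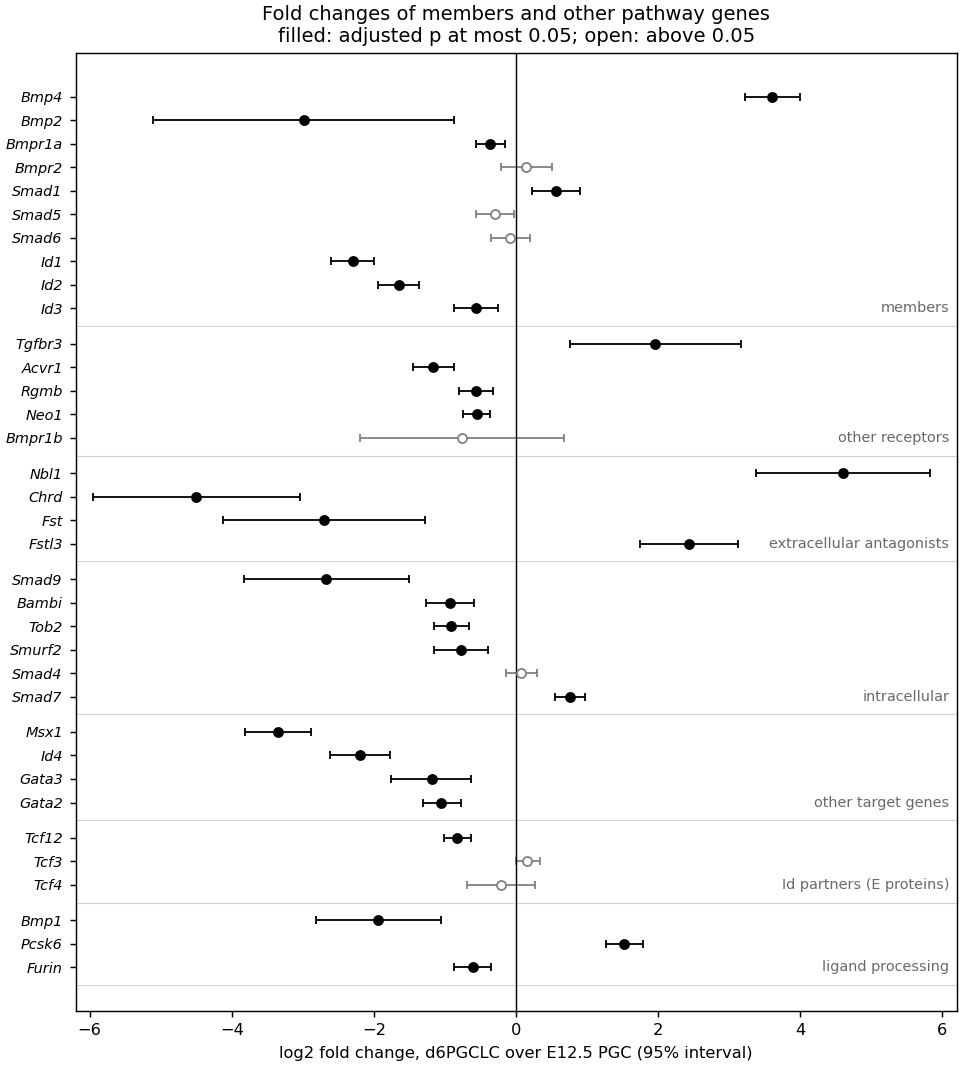
Log2 fold changes, d6PGCLC over E12.5 PGC, with 95% intervals, for the 10 members and for the pathway genes named by the rule, grouped by role. Filled points passed an adjusted p of 0.05 and open points did not; *Bmp4* at 3.60 and *Id1* at -2.30 stand at opposite sides, and *Bmpr2*, *Smad5* and *Smad6* are open.

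Ordered by level per exonic length, *Id3* was the highest member in both groups, at 188 ± 56.5 RPKM in d6PGCLCs and 278 ± 27.4 RPKM in the E12.5 PGC libraries (mean ± SD over 4 libraries). In E12.5 PGCs *Id1* (82.6 ± 14.5 RPKM) and *Id2* (44.7 ± 7.57) followed, then *Bmpr1a* (30.7 ± 2.70), *Smad5* (22.1 ± 2.99), *Smad6* (14.5 ± 1.35), *Smad1* (4.72 ± 0.557), *Bmpr2* (2.28 ± 0.349), *Bmp4* (1.34 ± 0.152) and *Bmp2* (0.202 ± 0.101), and no neighbours in this order overlapped. In d6PGCLCs *Bmpr1a* (23.9 ± 2.74 RPKM) came after *Id3*, and next stood a group of 5 genes whose neighbours overlapped, namely *Smad5* (18.0 ± 0.940), *Id1* (16.8 ± 2.92), *Bmp4* (16.3 ± 2.22), *Id2* (14.2 ± 1.55) and *Smad6* (13.7 ± 2.51). *Smad1*, *Bmpr2* and *Bmp2* followed at 6.96 ± 1.35, 2.52 ± 0.725 and 0.0234 ± 0.0311 RPKM. *Bmp4* therefore ranked 5 of 10 in d6PGCLCs, beside *Id1* and *Id2*, and 9 of 10 in E12.5 PGCs.

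**Figure D4:**
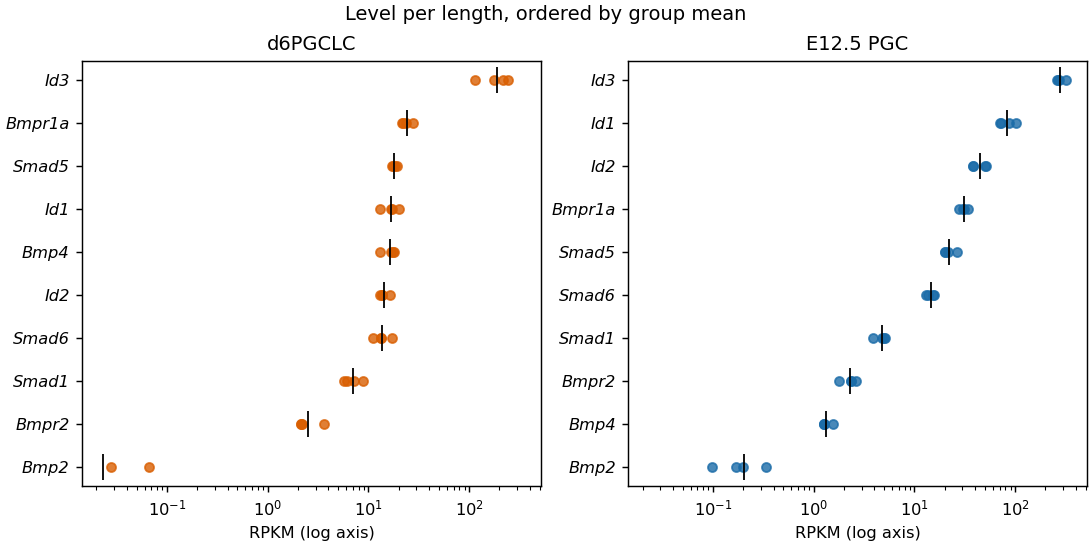
Level per exonic length (RPKM, log axis) of the 10 members in d6PGCLCs (left) and E12.5 PGCs (right), with each point a library, each tick the group mean and genes ordered by that mean. The 2 d6PGCLC libraries with no *Bmp2* count are not drawn, and *Smad5*, *Id1*, *Bmp4*, *Id2* and *Smad6* lie close together in d6PGCLCs.

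The genes most like each Id member over the 8 libraries were sought among the 8192 genes averaging 10 CPM or more, as the smallest root mean square difference of log2(CPM + 0.1) centred per gene. For *Id1* these were *Srsf12* (0.205), *Lix1l* (0.237) and *Tcf7l1* (0.238), with log2 fold changes of -2.26, -2.23 and -2.23. By the same measure *Id4* (0.360) ranked 27, *Id2* (0.378) ranked 33 and *Id3* (0.954) ranked 1380 from *Id1*. For *Id2* they were *Gpcpd1* (0.184), *Zfp800* (0.185) and *Gas1* (0.191), and for *Id3* *Zfp959* (0.109), *Ndufaf4* (0.113) and *Gpatch3* (0.115). The ranks depend on the gene they are taken from. From *Id2*, *Id4* ranked 174, *Id1* 176 and *Id3* 1129, and from *Id3*, *Id2* ranked 5817, *Id4* 7348 and *Id1* 7564. All points share the same 8 libraries.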

How the data were processed

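RNA of 4 d6PGCLC and 4 E12.5 PGC pools was sequenced as stranded poly(A) libraries of 100 bp single-end reads. The authors deposited raw counts per gene, for which STAR aligned the reads to GRCm38 plus ERCC spike-ins, followed by choosing an isoform per gene at random, removing genes with overlapping promoters at random, and counting uniquely mapped exonic reads with QuasR. The deposited table also gives the exonic length in base pairs, which was used here. Whether counting used strand is not stated in the sources used here. Of 21950 Entrez identifiers, 21907 matched a RefSeq symbol (GRCm38.p6), and all 10 members and 70 of 72 listed pathway genes were in the table.

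Counts were fitted in R 4.3.3 with edgeR 4.0.16 (TMM, glmQLFit and glmQLFTest, prior count 0.125, no filter on low counts), with cell type as the only term and Benjamini-Hochberg adjustment over all genes. The study used the likelihood ratio test of the same package. CPM use TMM-scaled library sizes, and RPKM divide them by exonic length. Depth was 7991437 to 12024841 counts per library, and intervals for low counts cover counting error only. No pair of libraries of a group agreed within sampling noise (chi-square over its degrees of freedom 3.35 to 22.1). The fit was tested on simulated counts.

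The members and lists were chosen with earlier results of these data known. Named genes are the members, in each pathway list up to 4 called genes with at least 1 CPM and the largest absolute fold change, and *Id4*, *Bmpr1b*, *Acvr1*, *Smad4*, *Smad7*, *Smad9* and the E proteins, and the 3 genes most like each Id member. Others were named after their values were seen, to complete a count or to give the level of a ligand, receptor or target. As alternatives, DESeq2 1.42.0 and the likelihood ratio test were run, with other scalings, filters on low counts, a prior count of 2, a replicate block, an adjusted p of 0.01 and leaving out libraries. GENCODE M21 transcripts and RefSeq promoters served for sequences. *Rgma*, *Dand5* and the markers *Foxl2*, *Hba-a1*, *Hbb-bt* and *Ier3* were not analysed here.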

Additional observations from a re-analysis of the deposited data

Results flagged for a closer look

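Among 67 sets of 4 libraries of the 35 genes named by the rule, 4 held a library whose gap to its nearest neighbour was a larger part of the set's range than Dixon's 95% critical value, where chance gives about 3.4. *Bmpr2* was at 41.9 CPM in d6PGCLC replicate 1 and at 24.7 to 25.5 CPM in the other d6PGCLC libraries. *Bmp4* was at 3.12 CPM in E12.5 PGC replicate 1 and at 2.49 to 2.53 CPM in the others of that group, a difference of a few counts. *Acvr1* was at 59.5 CPM in E12.5 PGC replicate 1 and at 44.7 to 45.3 CPM in the others. *Tcf12* was at 102 CPM in d6PGCLC replicate 4 and at 95.2 to 95.4 CPM in the others.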

How the results depend on the processing

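The log2 fold changes of *Bmp4*, *Bmp2*, *Bmpr1a*, *Id1*, *Id2* and *Id3* kept their direction and their call in every alternative that could be run, with *Id1* between -2.39 and -2.18 and *Bmp4* between 3.51 and 3.69. *Bmp2* was removed by both filters on low counts and was at -1.70 with a prior count of 2. The number of members called higher was between 1 and 2 with each library left out, and it was 1 without E12.5 PGC replicate 3, when *Smad1* was not called. With a library left out, log2 fold changes near 0 changed sign, with *Bmpr2* between -0.08 (without d6PGCLC replicate 1) and 0.22, *Smad4* between -0.02 (without d6PGCLC replicate 1) and 0.15, and *Smad6* between -0.20 and 0.00 (without d6PGCLC replicate 2). *Bmpr1b*, at -0.76, was between -1.06 and -0.29 with any library left out and at 0.16 without both E12.5 PGC replicates 2 and 4. *Tcf3* was called with DESeq2 only, and *Smad5* with DESeq2 and both filters. The cause was not tested. The order of members by CPM in place of RPKM put 7 of 10 at another rank in d6PGCLCs and 7 in E12.5 PGCs, because CPM does not divide by length. Scaling moved the median of expressed genes by at most 0.039 (log2). With the replicate number as a block, 2 members were called higher and 5 lower, and 3708 and 3562 of all genes against 3532 and 3387. Same-numbered libraries did not deviate together throughout (r from -0.01 to 0.25 across genes, and 2 of 4 numbers matched best with their own). These mixed values cannot decide whether some numbers pair the samples. *Bmp2*, *Bmpr1b*, *Atoh8*, *Dlx5* and most other ligands rest on few counts, and the effect of depth was not tested.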
